A study of Mus musculus with 180 samples.

Results

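CD11b+CD48+SK cells are donor-derived bone marrow progenitors that carry the stem cell surface proteins Sca1 and c-kit (together "SK") and, in addition, CD48 and the myeloid integrin CD11b (Mac-1). They were set here against adult bone marrow haematopoietic stem cells (BM HSC), gene by gene and cell by cell. The members were every cell labelled as one population or the other, 47 CD11b+CD48+SK cells and 36 BM HSC, which made 83 of the 180 cells analysed. The 41 WT-MPP (adult wild-type multipotent progenitors) and 56 FL HSC (fetal liver HSC) appear only as values side by side. All mice were of the C57BL/6 strain.

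The CD11b+CD48+SK cells descended from MPP of Mx1cre/Rosa LSL-Hoxb5-EGFP/+ mice, in which Cre under the interferon-responsive Mx1 promoter removes a stop cassette and switches on Hoxb5 together with EGFP. They were sorted as GFP+ cells from the marrow of irradiated CD45.1+ recipients at Week 8 post-transplantation. The recipients had been injected with pIpC, a double-stranded RNA that induces interferon, in the days before and after transplantation. The BM HSC and the WT-MPP came from 8-week-old Rosa LSL-Hoxb5-EGFP/+ mice, which carry the silent cassette without Cre, and the gate by which the BM HSC were sorted is not given in the sources used here. The FL HSC came from mid-gestation embryos of the same genotype. Ectopic Hoxb5, Cre, pIpC, the irradiated host, the time since transplantation and the collection all differed between the CD11b+CD48+SK cells and the BM HSC, so their parts in any difference cannot be told apart. No animal is named for any cell. Each population therefore counted as 1 sample, which leaves no test to make, and all differences below are described by their size.

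Adult HSC sit at the top of blood formation. They are mostly quiescent and are held in the undifferentiated state by factors such as Mecom, Hlf, Meis1 and Gata2. As HSC give way to multipotent and then lineage-primed progenitors, they gain CD48 and Flt3, enter the cell cycle and begin to transcribe lymphoid genes such as Dntt and granule genes such as Mpo before any lineage is fixed.

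Expression was given in TPM (transcripts per 1000000), which sums to the same total in every cell and keeps no read counts, so sequencing depth is unknown. Genes counted as present, meaning 1 TPM or more, numbered 3039 to 6791 per CD11b+CD48+SK cell with a median of 4514, and 2479 to 5861 per BM HSC with a median of 4441.5. Values above 0 but below 1 were rarer in the CD11b+CD48+SK cells, with a median of 699 genes per cell against 1445.5. This was not particular to them, since the median was also 699 in the FL HSC, while it was 1392 in the WT-MPP. The cause of this split between the populations was not tested. Genes that all cells use, such as the ribosomal protein gene Rps10, were listed at 0 in at least 1 BM HSC, so an entry of 0 is reported only as a listing at 0. Of 8 genes for sort markers, 4 (50%) were higher and 2 (25%) lower by 1 on the log2 scale explained in the next paragraph. Over all genes the shares were 14.3% and 12.6%. The median difference of the 8 was 0.38 and became -0.71 with a filter at 50% of cells. The 8 include Cd48 and Itgam, on whose proteins the CD11b+CD48+SK cells were sorted, so this count is no evidence independent of the sort. Cd48 was present in 47 of 47 CD11b+CD48+SK cells and 1 of 36 BM HSC, and Itgam, which encodes CD11b, in 17 of 47 against 1 of 36. Hoxb5 was present in 43 of 47 against 8 of 36, and its transcripts from the cassette and from the native gene were not told apart. Markers of other blood cells were present to different extents. Of 9 B cell markers in the table, only Cd79b passed the filter of being present in at least 10% of either population (29 of 47 against 27 of 36 cells), and its level was 0 to 522 TPM in the CD11b+CD48+SK cells and 0 to 1085 in the BM HSC. Of 10 T and NK markers 3 passed, with a median difference of -0.40 and a summed level of 0 to 311 against 0 to 291 TPM. Of 19 dendritic cell and macrophage markers 8 passed, with 14.8 to 1415 against 0 to 1211 TPM. Of these 8, 3 (37.5%) were higher by 1 and 1 (12.5%) lower, beside 14.3% and 12.6% of all genes. Their median difference was 0.29 (0 to 3.25 over 7 alternatives), on the log2 scale explained, with the alternatives, in the next paragraph. Cd3g, Cd5 and Cr2 were present in no cell of either population.

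Across the 10181 genes present in at least 10% of the cells of either population, the mean of log2(TPM+1) over cells was subtracted between the populations (CD11b+CD48+SK minus BM HSC). The difference had a median of 0.01 and quartiles of -0.55 and 0.61. By 1 or more on this log2 scale, 1452 genes (14.3%) had a higher mean in CD11b+CD48+SK cells and 1280 (12.6%) were lower. By 3 or more, 96 were higher and 117 lower. The share of cells in which a gene was present was higher by 50 percentage points or more for 61 genes (0.599%) and lower for 75 (0.737%). The pseudocount of 1 makes differences of weakly expressed genes smaller, and a gene listed at 0 in every cell of a population enters these counts and the medians below with a mean of 0 there. No difference is printed for such a gene. A gene that one population nearly lacks passes the filter only through the other, so the counts and medians of lists hold for the genes that passed and not for every gene listed. With each cell rescaled, so that its expressed genes had the same median ratio to their averages, the median of all genes moved to -0.18, with 968 genes higher and 1727 lower, so that the split between higher and lower depends on the scaling while the lists below are read against that shift. Taking the log2 of the mean TPM in place of the mean of the logs gave 971 higher and 2791 lower. These are 2 of 7 alternatives, the others being pseudocounts of 0.1 and 10, no filter, a filter at 50% of the cells, and the cells with 4000 to 5000 genes present, and the lowest and highest median of a list over them stand in parentheses after it.

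**Figure D1:**
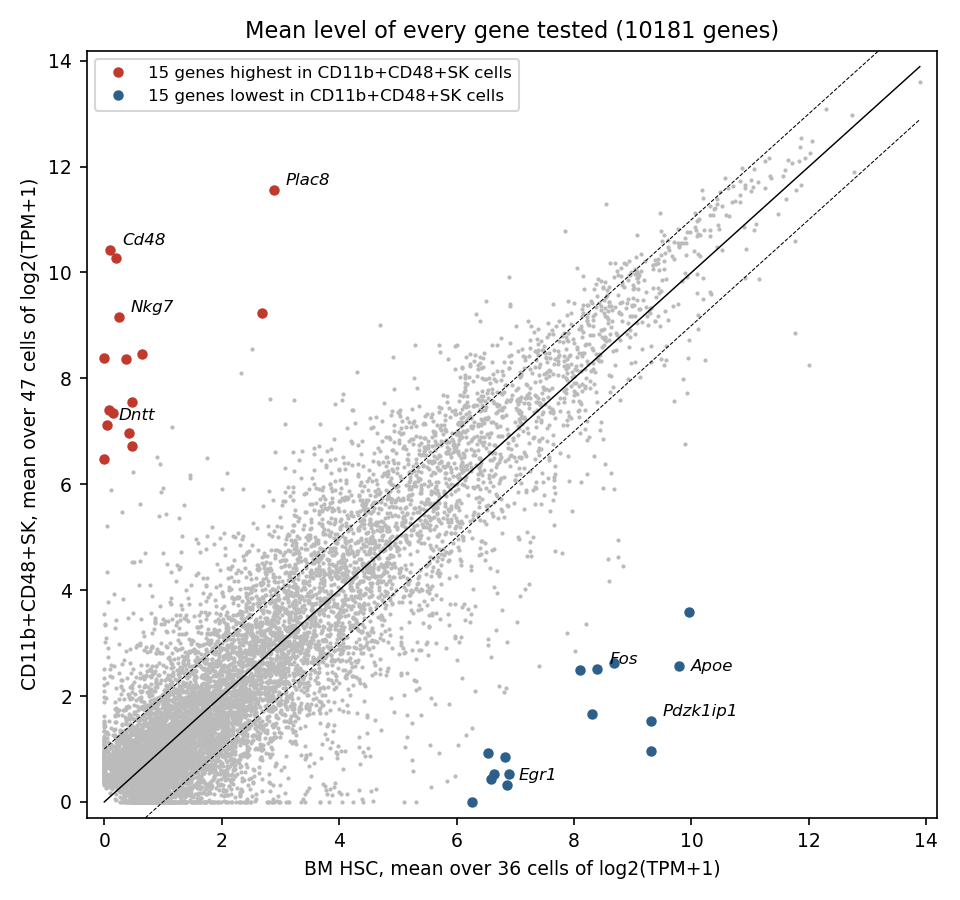
Mean over cells of log2(TPM+1) of each of the 10181 genes in the 36 BM HSC (x axis) and the 47 CD11b+CD48+SK cells (y axis). The solid line marks equal means and the dashed lines a difference of 1. The 15 highest genes (red) lie between 6.24 and 10.32 above the solid line, and the 15 lowest (blue) lie below it, with differences of -5.60 or lower.

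The 15 genes with the largest excess in the CD11b+CD48+SK cells, among those present in at least 50% of either population, were led by surface and granule proteins of leukocytes. After Cd48 itself, on which the cells were sorted, came Cd52, a small glycoprotein of the lymphocyte surface, at 193 to 2911 TPM with a median of 1448 in the CD11b+CD48+SK cells and 0 to 4.29 TPM with a median of 0 in the BM HSC. Every CD11b+CD48+SK cell lay above every BM HSC, and the means of log2(TPM+1) differed by 10.08. Nkg7, a membrane protein of cytotoxic granules, was at 0 to 4176 TPM with a median of 1024 against 0 to 171 TPM with a median of 0, with 41 of 47 cells above the highest BM HSC and a difference of 8.90. Plac8, a cysteine-rich protein of myeloid progenitors, was at 1234 to 7414 TPM with a median of 3008 against 0 to 1342 TPM with a median of 2.44. Plac8 was thus detected in 22 of the 36 BM HSC, yet 45 of 47 CD11b+CD48+SK cells exceeded all of them, at a difference of 8.65.

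Cst7 (cystatin F), an inhibitor of granule cathepsins, was at 0.822 to 1767 TPM with a median of 353 in the CD11b+CD48+SK cells and listed at 0 in each of the 36 BM HSC. Lat2, an adaptor of immune receptor signalling, was at 0.722 to 1019 TPM with a median of 428 against 0 to 99.7 TPM with a median of 0, and the groups overlapped only in their outermost cells. The chemokine Ccl9 (7.33), the adaptor Tyrobp (7.20), the tetraspanin Cd53 (7.09), galectin-1 (Lgals1, 6.55), the granulocyte receptor Gpr97 (6.53) and BC035044 (6.24) were also among the 15, with Dntt and Tespa1, an adaptor of T-cell receptor signalling. Tespa1 was at 0 to 494 TPM with a median of 127 and listed at 0 in every BM HSC. These and the 15 lowest genes all stayed among the 15 highest or 15 lowest when the cells were rescaled. With the log2 of the mean TPM, 12 of the 30 did so. In the WT-MPP, the mean log2(TPM+1) was 7.69 for Plac8, 3.72 for Cd52, 2.78 for Nkg7 and 0.19 for Cst7, side by side with 11.55, 10.28, 9.15 and 8.38 in the CD11b+CD48+SK cells.

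Some of these genes behaved almost as a switch between the populations. Counting genes held by 80% or more of the CD11b+CD48+SK cells and 10% or fewer of the BM HSC gave 11, BC035044, Bex6, Ccl9, Cd48, Cst7, Ctsg, Dntt, Lat2, Nkg7, Tespa1 and Tyrobp. Cst7 was present in 97.9% of CD11b+CD48+SK cells (95% exact Clopper-Pearson interval 88.7 to 99.9%) and in 0 of 36 BM HSC, which allows up to 9.74% by the same method. These intervals cover the counting of cells only. In the opposite direction stood 6 genes, Cish, Egr1, Krt18, Mmrn1, Sult1a1 and Trim47. The sulphotransferase gene Sult1a1 was present in 86.1% of BM HSC (70.5 to 95.3%) and in 0 of 47 CD11b+CD48+SK cells (up to 7.55%). It was also in only 26.8% of WT-MPP and 5.36% of FL HSC. Cish was in 31.7% and 21.4% of these, Mmrn1 in 31.7% and 44.6% and Egr1 in 70.7% and 23.2%. Krt18 (80.5% and 76.8%) and Trim47 (73.2% and 82.1%) were in most cells of both. At a stricter limit of 10 TPM, chosen after seeing the data, Bex6, Ctsg and Dntt were in 66.0%, 48.9% and 74.5% of the CD11b+CD48+SK cells and in none of the BM HSC.

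**Figure D2:**
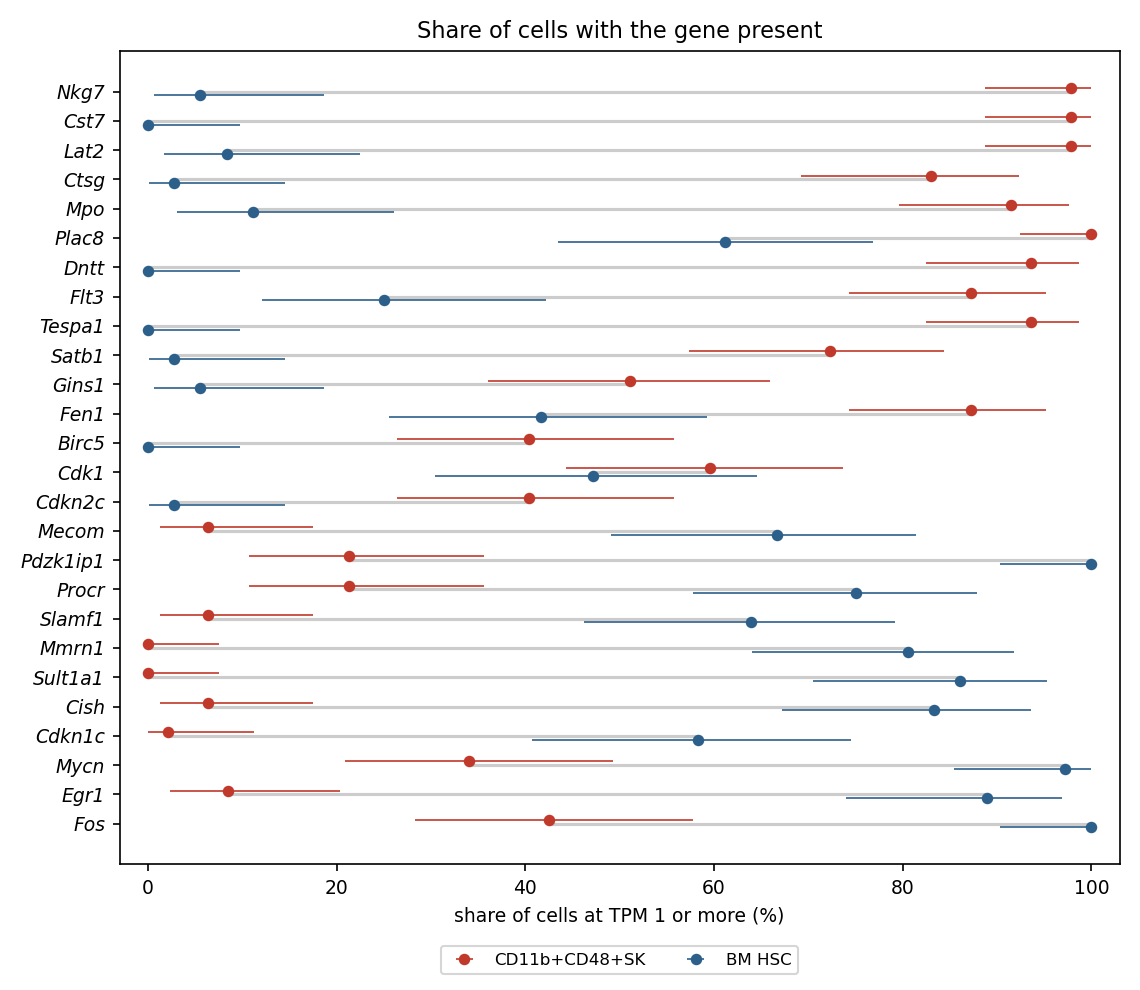
Share of cells in which each of 26 genes was present at a TPM of 1 or more, in CD11b+CD48+SK cells (red) and BM HSC (blue), with 95% exact Clopper-Pearson intervals as bars. Cst7 stands at 97.9% against 0%, Pdzk1ip1 at 21.3% against 100%, and for Cdk1 the intervals overlap (59.6% against 47.2%).

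At the other end were genes that nearly all BM HSC held. Pdzk1ip1, a small membrane protein, was at 7.49 to 2981 TPM with a median of 713 in the BM HSC against 0 to 397 TPM with a median of 0, and 10 of 47 CD11b+CD48+SK cells held it against 36 of 36 BM HSC (-7.78). It was also present in all 41 WT-MPP and all 56 FL HSC, so among the 4 populations its absence from most cells was found in the CD11b+CD48+SK cells.

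Apolipoprotein E (Apoe) was at 0.667 to 4653 TPM with a median of 1183 in the BM HSC and 0 to 505 TPM with a median of 2.67 in the CD11b+CD48+SK cells (-7.22). Its BM HSC values were not uniform, and the lowest BM HSC lay below the median of the CD11b+CD48+SK cells. Others of the 15 lowest genes were Cd63 (-6.37), a lysosomal tetraspanin, Serpinf1 (-6.36), Krt18 (-6.15), a keratin, Trim47 (-6.10), Ltb (-6.05), which encodes lymphotoxin beta, the junction protein Esam (-5.98), the thromboxane synthase Tbxas1 (-5.62), Fam213a (-5.60) and Sult1a1, with the stress-response genes Ppp1r15a, Egr1 and Fos described further on.

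**Figure D3:**
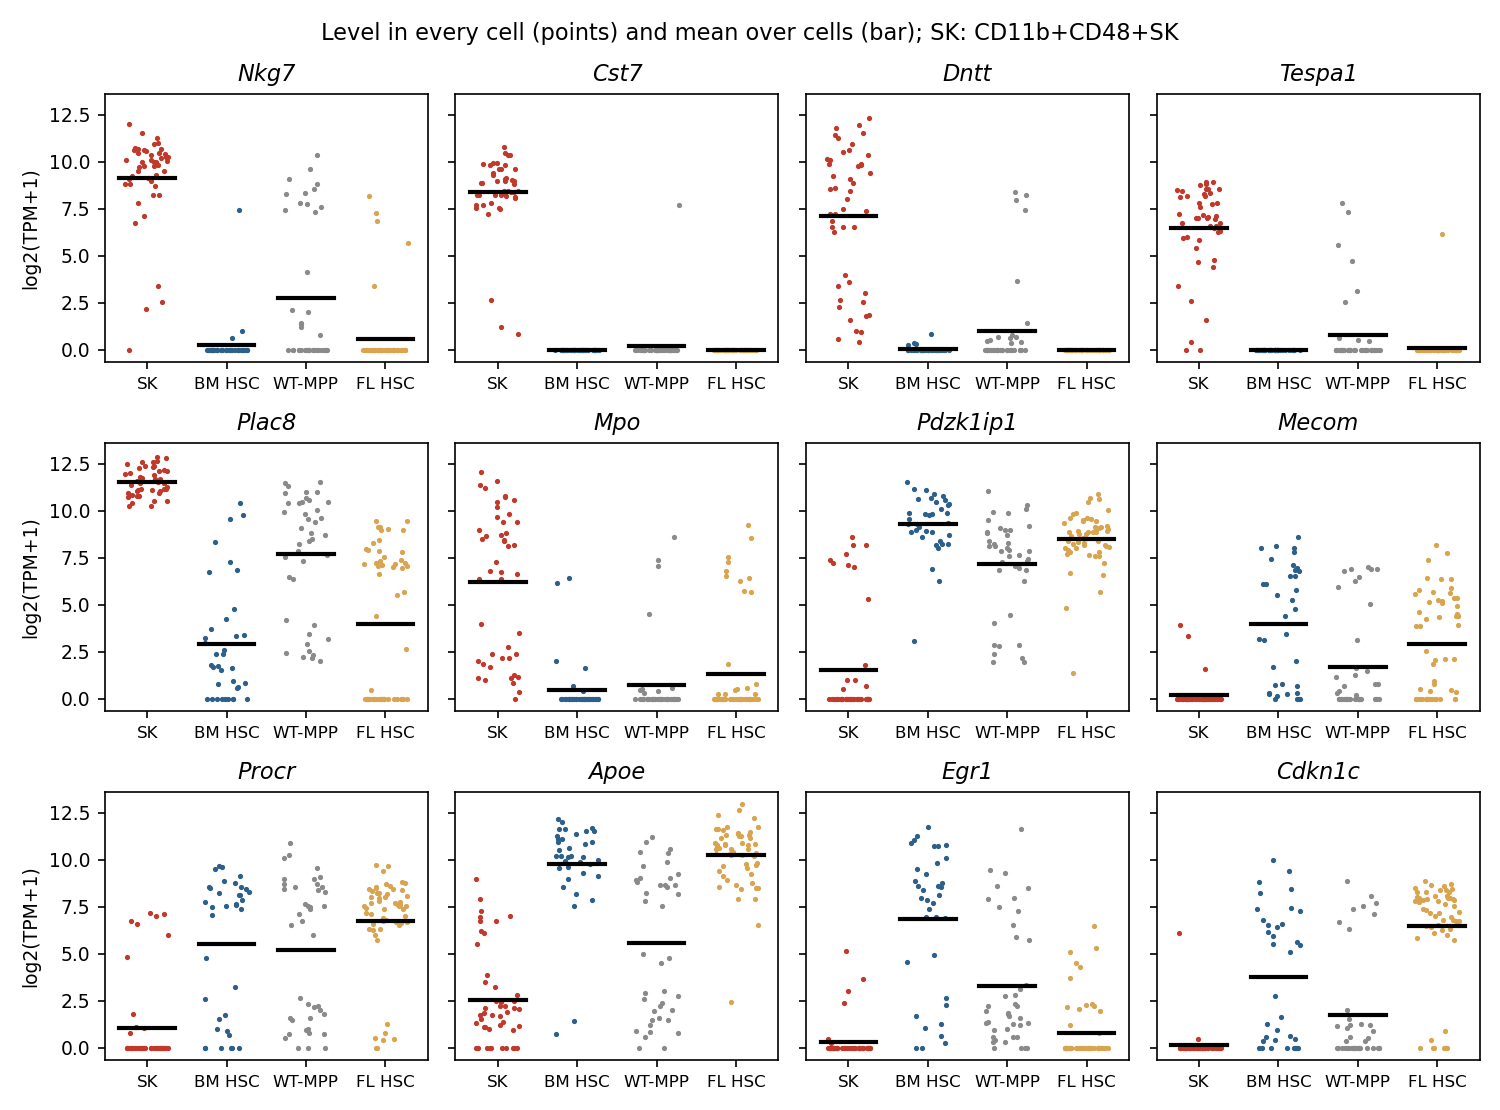
Level of 12 genes in every cell as log2(TPM+1), with 1 point per cell and a bar at the mean, for the 47 CD11b+CD48+SK cells ("SK"), 36 BM HSC, 41 WT-MPP and 56 FL HSC. Cst7 and Tespa1 are listed at 0 in every BM HSC, Dntt and Mpo spread over the whole range within the CD11b+CD48+SK cells, and Pdzk1ip1 is above 0 in every BM HSC.

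The deficit reached across the surface and signature genes of HSC. Of 38 such genes that passed the filter, 29 (76.3%, beside 12.6% of all genes) were lower by 1 or more and only Muc13, a mucin, was higher by that size (1.22), which turned to -0.0376 with the log2 of the mean TPM. The median difference was -2.19 (-3.71 to -1.50 over the alternatives). Procr, the endothelial protein C receptor by which HSC are enriched, was at 0 to 809 TPM with a median of 190.5 in the BM HSC and 0 to 145 TPM with a median of 0 in the CD11b+CD48+SK cells. Slamf1, which encodes CD150, was at 0 to 728 TPM with a median of 2.68 against 0 to 414 TPM with a median of 0. The ranges of both genes overlapped, and the difference was -4.47 for Procr and -3.38 for Slamf1.

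Cish, a feedback inhibitor of cytokine signalling, was present in 3 of 47 CD11b+CD48+SK cells and 30 of 36 BM HSC (-5.48), and Ifitm1, an interferon-induced membrane protein, was lower by a difference of -3.76 although 45 of 47 CD11b+CD48+SK cells still held it. Mmrn1 (multimerin), Art4, Trpc6 and Nupr1 were listed at 0 in all 47 CD11b+CD48+SK cells and present in 29, 26, 21 and 17 of 36 BM HSC. Counted per cell, a CD11b+CD48+SK cell held 8 to 19 of the 38 genes with a median of 13, and a BM HSC 20 to 33 with a median of 25.5. These ranges did not overlap. At 10 TPM, 42 of 47 CD11b+CD48+SK cells still lay below the lowest BM HSC, and among cells with 4000 to 5000 genes present all 24 CD11b+CD48+SK cells lay below all 17 BM HSC.

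Transcription factors of HSC were lower as a group, but less uniformly. Of 26 tested, 15 (57.7%) were lower by 1 or more, 1 was higher and the median difference was -1.50 (-2.61 to -0.73 over the alternatives). Mecom, which maintains HSC in the adult, was at 0 to 386 TPM with a median of 23.4 in the BM HSC and 0 to 14.51 TPM with a median of 0 in the CD11b+CD48+SK cells, where 3 of 47 held it (-3.81). Mllt3, a regulator of HSC self-renewal, was at 0.235 to 969 TPM with a median of 64.5 against 0 to 28.9 TPM with a median of 0 (-5.44). Meis1 was at 0.521 to 594 TPM with a median of 147 against 0 to 126 TPM with a median of 1.3, so that about as many CD11b+CD48+SK cells held it as lacked it (24 of 47, -3.84).

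Hlf was present in 8 of 47 CD11b+CD48+SK cells and 28 of 36 BM HSC (-3.65). Gata2 was lower in level (-2.94), though most CD11b+CD48+SK cells still held it (40 of 47 against 36 of 36). Tcf15, Ndn and Prdm16 were listed at 0 in all 47 CD11b+CD48+SK cells and present in 25, 20 and 12 of 36 BM HSC. Of the 26, 10 lay within 1 of the BM HSC. Among these, Lmo2 and Lyl1 were present in all 47 CD11b+CD48+SK cells, with differences of -0.70 and -0.22, and Runx1 (0.51), Erg (0.61) and Etv6 (0.81) lay slightly above the BM HSC. Hoxa7 was the member higher by 1 (1.44).

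Granule and neutrophil genes of the myeloid lineage were the counterpart. Of 24 tested, 13 (54.2%, beside 14.3% of all genes) were higher by 1 or more, 2 were lower and the median was 1.11 (0.53 to 3.86 over the alternatives). Mpo (myeloperoxidase), the peroxidase of primary granules, was at 0 to 4282 TPM with a median of 110.4 in the CD11b+CD48+SK cells and 0 to 84 TPM with a median of 0 in the BM HSC (5.74). Its values spread widely within the CD11b+CD48+SK cells, with an SD of 3.85 on the log2 scale, and 26 of 47 exceeded the highest BM HSC. The granule protease gene Ctsg (cathepsin G) was at 0 to 3469.6 TPM with a median of 8.98 against 0 to 1.76 TPM with a median of 0, and Serpinb1a, an inhibitor of such proteases, at 1.07 to 1396 TPM with a median of 507 against 0 to 425 TPM with a median of 0.958.

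Receptors of myeloid cells were higher as well, Csf3r for G-CSF in 28 of 47 CD11b+CD48+SK cells and 6 of 36 BM HSC (2.39), Clec12a in 25 of 47 against 2 of 36 (2.73) and the Fc receptor Fcgr2b in 15 of 47 against 0 of 36. Other granule and neutrophil genes did not follow. Elane (neutrophil elastase) was present in 0 of 47 CD11b+CD48+SK cells and 1 of 36 BM HSC, S100a8 in 5 of 47 against 0 of 36 and Ms4a3 in 7 of 47 against 0 of 36, while Prtn3 (proteinase 3) was already present in 35 of 36 BM HSC and differed by -0.76. Lyz2 (lysozyme) was present in every cell of both populations and differed by 0.10. The lower members were the chemokine Ccl4 (-2.19) and Ctsc (-1.31), the protease that activates granule enzymes. A CD11b+CD48+SK cell held 10 to 20 of the 24 genes and a BM HSC 4 to 11, and 44 of 47 CD11b+CD48+SK cells lay above the highest BM HSC.

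**Figure D4:**
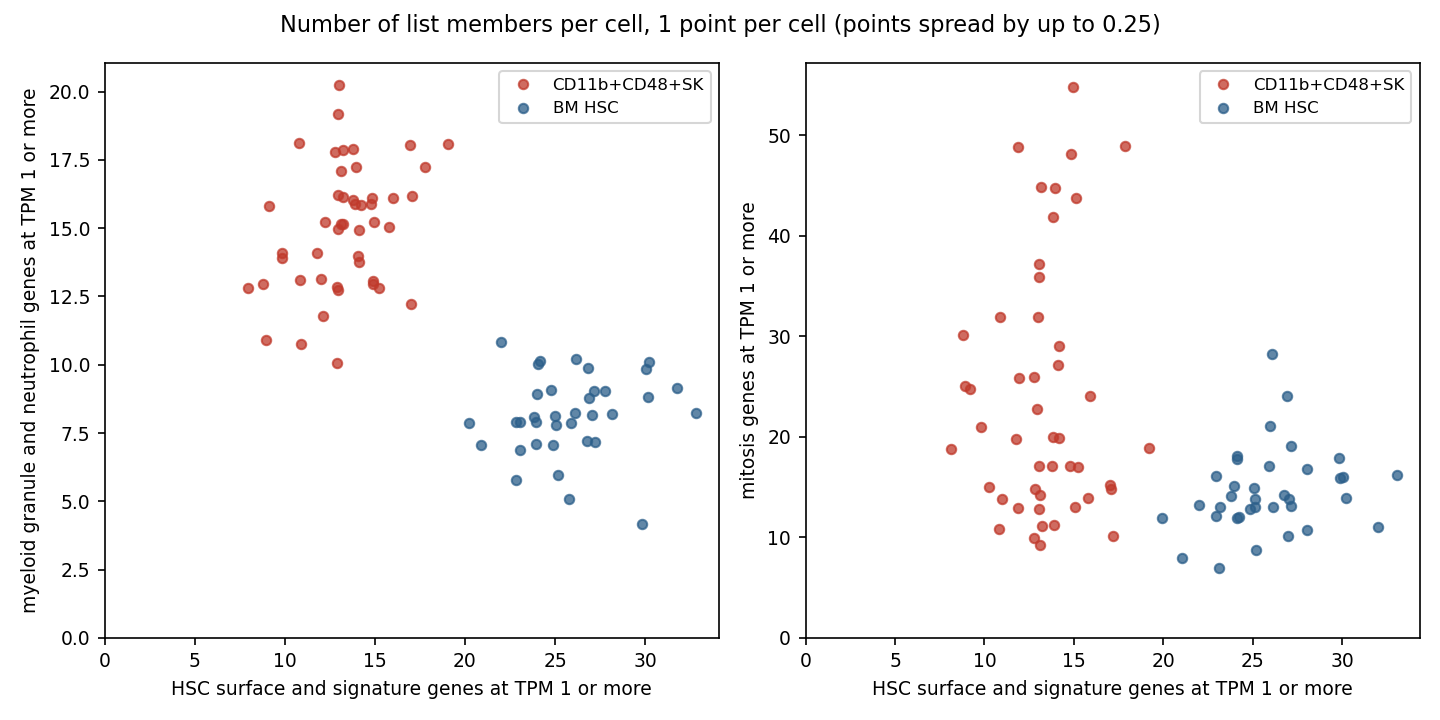
Number of HSC surface and signature genes present per cell (x axis) against the number of myeloid granule and neutrophil genes (left) and mitosis genes (right), for 47 CD11b+CD48+SK cells and 36 BM HSC. In the left plot the populations do not overlap on the x axis (8 to 19 against 20 to 33 genes), and in the right plot 14 CD11b+CD48+SK cells lie above the highest BM HSC, at 28 mitosis genes.

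Lymphoid genes were higher in the same cells. Of 22 lymphoid priming genes tested, 11 (50%) were higher by 1 or more and 2 lower, with a median of 0.998 (0.39 to 1.69 over the alternatives). Dntt, the terminal transferase that adds bases to antigen receptor joints, was at 0.355 to 5177 TPM with a median of 262 in the CD11b+CD48+SK cells and 0 to 0.772 TPM with a median of 0 in the BM HSC, below 1 TPM in all 36. Flt3, the cytokine receptor of lymphoid-primed progenitors, was at 0 to 1012 TPM with a median of 174 against 0 to 97.4 TPM with a median of 0.287 (5.42). Its mean log2(TPM+1) was 5.15 in the WT-MPP and 3.04 in the FL HSC, beside 6.38 in the CD11b+CD48+SK cells and 0.95 in the BM HSC. The paper defines MPP by a gate that includes CD135, the protein of Flt3, so the WT-MPP value is not independent of the sort. Satb1, a chromatin organiser of lymphoid progenitors, was at 0 to 472 TPM with a median of 32.9 against 0 to 31.2 TPM with a median of 0 (3.77).

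The kinase Lck was present in 18 of 47 CD11b+CD48+SK cells and 1 of 36 BM HSC (2.20), and Il2rg, the common gamma chain, was higher in level (2.62) though present in nearly all cells. Of genes of committed lymphocytes, Rag2 was present in 5 of 47 against 0 of 36, Vpreb1 in 4 of 47 against 0 of 36 and Cd79a in 0 of 47 against 1 of 36. Gata3 (-2.18) and the B-cell receptor component Cd79b (-1.04), which was present in 29 of 47 against 27 of 36, had lower means in the progenitors, and Ikzf1 and Tcf3, broad lymphoid factors, differed by 0.14 and -0.60. A CD11b+CD48+SK cell held 7 to 20 of the 22 genes with a median of 14, against 3 to 14 with a median of 8.

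Lymphoid and myeloid genes were found together in single cells. Dntt and Mpo were both present in 40 of 47 CD11b+CD48+SK cells (85.1%, exact interval 71.7 to 93.8%) and in 0 of 36 BM HSC (up to 9.74%), beside 2 of 41 WT-MPP and 0 of 56 FL HSC. Dntt was present in 44 and Mpo in 43 of the 47 CD11b+CD48+SK cells, so most of these cells had to hold both. At the limit of 10 TPM the count of cells with both was 22 of 47 (46.8%, 32.1 to 61.9%) against 0 of 36, with 13 cells holding Dntt alone and 9 Mpo alone, so the size of the overlap depends on the limit. Flt3 and Mpo were both present in 37 of 47 against 3 of 36. Procr and Slamf1, which mark HSC jointly, were both present in 18 of 36 BM HSC (50%, 32.9 to 67.1%) and in 0 of 47 CD11b+CD48+SK cells (up to 7.55%), although 10 of these held Procr and 3 held Slamf1. Mecom with the mitotic kinase gene Cdk1 was present in 10 of 36 BM HSC and in 0 of 47 CD11b+CD48+SK cells, of which 28 held Cdk1 alone and 3 Mecom alone. With so few cells holding Mecom, Procr or Slamf1, joint counts of 0 say little beyond the rarity of each gene. Whether any pair occurred together more or less often than its single counts imply was not tested.

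Fate-determining transcription factors differed in both directions. Sfpi1, which encodes PU.1, the factor of myeloid and lymphoid commitment, was at 5.92 to 913 TPM with a median of 428 in the CD11b+CD48+SK cells and 0 to 616 TPM with a median of 64.8 in the BM HSC (3.48), and it was present in every CD11b+CD48+SK cell. The granulocyte factor Cebpa was present in 23 of 47 CD11b+CD48+SK cells and 3 of 36 BM HSC (2.02), and Gfi1, a repressor that acts in granulocytes and HSC, in 24 of 47 against 5 of 36 (1.75). Runx3, a factor of T cells and myeloid cells, was higher by 1.75. On the lower side, Cebpb (-1.77), Zfpm1, the cofactor of Gata1 (-1.49), Etv5 (-1.20) and Id2 (-1.09) accompanied Gata2, Egr1 and Jun, and Id1 was listed at 0 in all 47 CD11b+CD48+SK cells and present in 10 of 36 BM HSC. Of 20 such factors, 5 (25%) were higher and 8 (40%) lower by 1, beside 14.3% and 12.6% of all genes. The median was -0.43 (-0.86 to -0.18 over the alternatives).

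Megakaryocyte and platelet genes, several of which are also HSC genes, were lower. Of 24 tested, 12 (50%) were lower by 1 or more and 2 higher, with a median of -1.22 (-3.38 to -0.62 over the alternatives). Gp9, a subunit of the von Willebrand factor receptor, was at 0 to 771 TPM with a median of 149 in the BM HSC against 0 to 223 TPM with a median of 0 (-3.93), and the cyclooxygenase Ptgs1 was present in 26 of 36 against 1 of 47. Vwf itself was present in 15 of 36 against 1 of 47, and Clu (clusterin), present in 15 of 36 BM HSC, was listed at 0 in all CD11b+CD48+SK cells. The exceptions were Selp (P-selectin, 1.90) and Plek (pleckstrin, 1.34). Of 8 erythroid genes, 2 (25%, beside 12.6% of all genes) were lower by 1 and none higher. The median (0.08) and the mean (-0.30) differed in sign. The median became -2.91 with the filter at 50% of cells and -0.39 with the log2 of the mean TPM. The carbonic anhydrase Car2 was lower (-2.91), yet present in every cell of both populations, and the erythropoietin receptor gene Epor was present in 7 of 36 BM HSC and listed at 0 in all CD11b+CD48+SK cells. Gata1, the master factor of both lineages, was present in 3 of 47 and 3 of 36. The summed level of the erythroid genes was 2.45 to 4654 TPM in the CD11b+CD48+SK cells and 1560 to 8912 in the BM HSC.

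Mast cell and basophil genes stood out in part of the CD11b+CD48+SK cells. Cpa3, the mast cell carboxypeptidase, was at 0 to 9063 TPM with a median of 13.9 against 0 to 3.91 TPM with a median of 0, which spanned the whole range within the CD11b+CD48+SK cells, and 31 of 47 cells exceeded every BM HSC. The basophil protease Mcpt8 was present in 17 of 47 CD11b+CD48+SK cells and 1 of 36 BM HSC and in no WT-MPP or FL HSC cell, and reached 1947 TPM. Ms4a2, a chain of the IgE receptor, was present in 5 of 47 against 0 of 36, and Fcer1g, a signalling chain shared by many Fc receptors, was higher by 1.89. The list had 3 of 7 genes higher by 1 and none lower, with a median of 0.54 (0.22 to 1.89 over the alternatives), and its summed level ran from 0 to 9864 TPM in the CD11b+CD48+SK cells and from 0 to 828 in the BM HSC. The part of mast or basophil cells in this was not tested.

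Genes of DNA replication had higher means in the progenitors. Of 29 genes for licensing of origins and for the replication fork, 15 (51.7%, beside 14.3% of all genes) were higher by 1 or more and none lower, with a median of 1.33 (0.61 to 2.25 over the alternatives). Gins1, a subunit of the helicase that opens the fork, was at 0 to 528 TPM with a median of 1.09 against 0 to 168 TPM with a median of 0 (3.07). Cdt1, which loads the MCM helicase onto origins, was at 0 to 406 TPM with a median of 45.6 against 0 to 167 TPM with a median of 0 (2.60), and its inhibitor Gmnn (geminin) at 0 to 689.7 TPM with a median of 17 against 0 to 686 TPM with a median of 0 (2.25). The ranges of all 3 genes overlapped, and the median BM HSC was at or close to 0. The helicase subunits Mcm2 to Mcm7 were all higher by 1 or more, from 1.39 for Mcm4 to 2.27 for Mcm5, and the origin subunits Orc2 (-0.73) and Orc5 (-0.24) were not.

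Of 36 genes of DNA synthesis, 25 (69.4%) were higher by 1 or more and 1, the polymerase subunit gene Pole (-1.13), was lower, with a median of 1.36 (0.66 to 1.84 over the alternatives). Fen1, the nuclease that trims lagging strand flaps, was at 0 to 635 TPM with a median of 136 against 0 to 628 TPM with a median of 0.475, a difference of 3.54. Rrm2, which limits the supply of deoxynucleotides, was present in 25 of 47 CD11b+CD48+SK cells and 3 of 36 BM HSC (2.41), and the histone chaperones Nasp (2.72) and Asf1b (2.50) and the sliding clamp Pcna (1.53) were also higher. A CD11b+CD48+SK cell held 3 to 36 of the 36 genes with a median of 25, and a BM HSC 6 to 35 with a median of 15.5, so the populations overlapped throughout and differed in how many cells lay at the upper end.

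Mitosis genes were higher too. Of 57, 28 (49.1%) were higher by 1 or more and none lower, with a median of 0.99 (0.42 to 1.67 over the alternatives). Cks2, a subunit of Cdk1 complexes, was at 0 to 5328 TPM with a median of 248 against 0 to 447 TPM with a median of 6.6 (3.60). Birc5 (survivin), part of the chromosomal passenger complex, was at 0 to 1172 TPM with a median of 0.465 in the CD11b+CD48+SK cells, of which 19 held it, and below 1 TPM in all 36 BM HSC. Cdca3, which is needed for mitotic entry, was present in 17 of 47 and listed at 0 in all BM HSC, and Mki67, the proliferation marker Ki-67, was present in 11 of 47 against 0 of 36.

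Cdk1 itself, the kinase that drives mitosis, differed little. It was present in 28 of 47 CD11b+CD48+SK cells and 17 of 36 BM HSC, its difference was 0.59, and among the cells with 4000 to 5000 genes present this became -0.33. The tubulin gene Tuba1b was present in every cell of both populations and differed by 0.30. A CD11b+CD48+SK cell held 9 to 55 of the 57 mitosis genes with a median of 20, and a BM HSC 7 to 28 with a median of 14. At most 28 genes were present in a BM HSC, and 14 of 47 CD11b+CD48+SK cells held more. Of 10 genes named by the study (Birc5, Cdc45, Cdk6, Cdt1, Gins1, Gmnn, Hoxb5, Mybl2, Runx3 and Satb1), all were higher by 1 or more with a median of 2.64 (1.44 to 4.11 over the alternatives). These were chosen on the same cells and are no independent evidence of direction.

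The promoters of 3 of these cell cycle genes are printed here because they hold the motifs that cell cycle factors are known to read. The motifs were E2F sites (TTTCGCGC, TTTGGCGC, TTTCCCGC or TTTGCCGC), the CCAAT box, and the cell cycle homology region, CHR (TTTGAA or TTCGAA), on either strand, in the 300 bases from 250 before to 50 after each RefSeq start on GRCm38.p6. Matches that overlap are joined in one run of capitals. An E2F match was found in 39.3% of 28 promoters of licensing and fork genes, 23.1% of 39 of DNA synthesis genes and 8.33% of 48 of mitosis genes, beside 4.08% of 9696 promoters of the genes tested and 2.27% of all 32851. A CHR match was found in 72.9% of the mitosis promoters, 25% of the licensing and 15.4% of the synthesis promoters, beside 14% of the genes tested and 19.2% of all. CCAAT was found in 77.1% of the mitosis, 60.7% of the licensing and 51.3% of the synthesis promoters, beside 38.2% of the genes tested and 37.4% of all. Promoters were found for 23 of 29 licensing, 32 of 36 synthesis and 45 of 57 mitosis genes. A match is a description of letters and not a site shown to be bound. Below are the 160 bases before the start, on the strand of the gene and 5′ to 3′, with every match in capitals. Mcm6 (chr1:128359706-128359865, minus strand) holds 3 E2F and 2 CCAAT matches, of which a pair of E2F matches overlap. Cenpm (chr15:82244337-82244496, minus strand) holds 1 match of each kind. Top2a (chr11:99024190-99024349, minus strand) holds 4 CCAAT and 3 CHR matches.
Mcm6: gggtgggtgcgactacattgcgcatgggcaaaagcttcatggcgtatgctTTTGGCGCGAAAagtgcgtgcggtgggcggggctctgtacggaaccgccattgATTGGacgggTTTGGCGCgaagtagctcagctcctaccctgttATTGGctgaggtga
Cenpm: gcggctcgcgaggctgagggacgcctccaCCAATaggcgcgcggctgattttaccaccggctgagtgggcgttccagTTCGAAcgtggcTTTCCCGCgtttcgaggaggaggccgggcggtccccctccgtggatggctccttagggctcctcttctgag
Top2a: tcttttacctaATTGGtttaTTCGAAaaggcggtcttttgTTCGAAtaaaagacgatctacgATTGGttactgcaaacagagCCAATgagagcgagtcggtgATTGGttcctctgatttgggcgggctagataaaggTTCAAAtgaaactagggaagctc
The level of Mcm6, a helicase subunit, was 0 to 931 TPM with a median of 276 in the CD11b+CD48+SK cells against 0 to 1469.9 TPM with a median of 84.2 (2.26), which left the highest BM HSC above every CD11b+CD48+SK cell. That of Cenpm, a kinetochore protein, was 0 to 444 TPM with a median of 3.2 against 0 to 175 TPM with a median of 0 (2.34), and that of Top2a, which untangles sister chromatids, 0 to 225 TPM with a median of 0.314 against 0 to 96.6 TPM with a median of 0 (1.51).

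The regulators that open the cell cycle were mixed. Cdk6, the partner of D-type cyclins whose level separates dormant from active HSC, was at 0 to 441 TPM with a median of 85.2 against 0 to 148 TPM with a median of 0 (4.47), the largest difference among 26 regulators. The E-type cyclin Ccne2 was present in 19 of 47 CD11b+CD48+SK cells and 4 of 36 BM HSC (1.70), while Ccnd2 (-1.44) and Ccnd3 (-1.64) were lower though present in nearly every cell. In all, 6 (23.1%) were higher and 3 (11.5%) lower by 1, beside 14.3% and 12.6% of all genes. The median was 0.36 and became -0.38 among the cells with 4000 to 5000 genes present and -0.14 with the log2 of the mean TPM. Among the inhibitors, Cdkn1c (p57), which keeps HSC quiescent, was at 0 to 1035 TPM with a median of 19.7 in the BM HSC and present in 1 of 47 CD11b+CD48+SK cells. Cdkn2d was lower too (-2.22), and Cdkn2c (p18) was present in 19 of 47 against 1 of 36 and higher by 2.29. Cdkn1a and Cdkn1b both differed by -0.65. Of the 5 inhibitors, 1 (20%) was higher and 2 (40%) lower by 1, with a median of -0.65 (-2.22 to -0.36 over the alternatives).

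Myc and Mycn differed in opposite directions. Myc was at 1.24 to 3892 TPM with a median of 599.7 in the CD11b+CD48+SK cells and 0.374 to 2296 TPM with a median of 264 in the BM HSC (2.01), and Mycn, its homologue in HSC, at 0 to 280.0 TPM with a median of 0.238 against 0 to 1342 TPM with a median of 252 (-4.69). Myb, needed by progenitors, differed by -0.62, and Mybl2, a mitotic activator, was present in 18 of 47 against 2 of 36 (1.60). Of 12 genes of these families, 3 (25%) were higher and 2 (16.7%) lower by 1, beside 14.3% and 12.6% of all genes. Their median was -0.31 (-0.62 to -0.14 over the alternatives). Among quiescence and redox genes, 10 of 37 (27%) were lower by 1 or more and 4 higher, with a median of -0.20 (-0.66 to -0.18 over the alternatives). Txnip, a brake on glucose uptake that is high in resting HSC, was at 2.67 to 2542 TPM with a median of 590.1 in the BM HSC against 0 to 738 TPM with a median of 127 (-2.56), and Tsc22d3, a glucocorticoid-induced gene, differed by -3.81. Gpx3, a secreted glutathione peroxidase, was present in 14 of 36 BM HSC and listed at 0 in every CD11b+CD48+SK cell. The peroxiredoxins Prdx2 (1.40) and Prdx3 (1.99) were higher, and Foxo1 (-0.35) and Foxo3 (0.10) were close to level.

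Immediate early genes, which respond within minutes to growth factors, stress and handling, had lower means in the progenitors. Of 31 tested, 18 (58.1%) were lower by 1 or more and none higher, with a median of -1.25 (-2.22 to -0.76 over the alternatives). Egr1 was at 0 to 3477 TPM with a median of 265 in the BM HSC and 0 to 34.9 TPM with a median of 0 in the CD11b+CD48+SK cells (-6.54). Fos, a subunit of AP-1, was at 1.24 to 10552 TPM with a median of 886 against 0 to 717 TPM with a median of 0.526 (-5.89). Ppp1r15a (GADD34), which restarts translation after stress, was at 1.19 to 4341 TPM with a median of 455 against 0 to 287 TPM with a median of 0 (-6.64).

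The BM HSC differed widely among themselves in these genes, with an SD of 3.66 for Fos and 3.76 for Egr1 on the log2 scale. Dusp1 (-4.84), Zfp36 (-4.39), Junb (-4.001) and Jun (-2.09) followed, and Dusp6 (0.75), Btg2 (0.46) and Maff (0.06) did not. Summed over the list, a BM HSC held 1424 to 43203 TPM with a median of 10221 and a CD11b+CD48+SK cell 472 to 5136 with a median of 1347. How the sorting and handling of the populations compared is not given in the sources used here, and their part in these genes was not tested. Mean log2(TPM+1) of Egr1 was 3.30 in the WT-MPP and 0.80 in the FL HSC, and that of Fos 6.23 and 5.08. Heat shock chaperones differed less. Of 19, 2 (10.5%) were higher and 3 (15.8%) lower by 1, close to the 14.3% and 12.6% of all genes. Their median of 0.40 became -0.07 when the cells were rescaled and -0.16 among the cells with 4000 to 5000 genes present.

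Antigen presentation genes were partly higher. Of 11 MHC class II genes, 6 (54.5%) were higher by 1 or more and none lower, with a median of 1.10 (0.53 to 1.997 over the alternatives). H2-Ob, a chain of the H2-O modulator, was at 0.208 to 915 TPM with a median of 99.9 against 0 to 245 TPM with a median of 0.072 (4.88), the chain H2-Ab1 was higher by 2.79 and the lysosomal protease Ctss by 2.75. The partner chain of H2-Ab1, H2-Aa (-0.40), and the invariant chain Cd74 (-0.05) were not, and Ciita, the class II transactivator, was present in 1 of 47 against 2 of 36. In MHC class I presentation, the immunoproteasome subunits Psmb8 (1.20), Psmb9 (1.56) and Psmb10 (1.57) and the transporter Tap1 (1.60) were higher. Over all 21 genes, 7 (33.3%) were higher and 1 (4.76%) lower by 1, beside 14.3% and 12.6% of all genes. The median (-0.11) and the mean (0.31) differed in sign, and the median became 0.33 with the filter at 50% of cells. H2-Q6 (-1.05) has near-identical copies between which the reads could be divided.

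Interferon-stimulated genes were mostly not higher. The recipients of the CD11b+CD48+SK cells had received pIpC only in the days around transplantation, and the cells were taken at Week 8. The part of pIpC in these genes was not tested. Of 40 tested, 3 (7.50%) were higher by 1 or more and 12 (30%) lower, with a median of -0.48 (-0.87 to -0.28 over the alternatives). The higher members were Ifi27, listed under its older symbol Ifi27l1, at 0 to 1532 TPM with a median of 353 against 0 to 702 TPM with a median of 8.42 (3.18), the RNA sensor Oas1a (1.55) and the tethering protein Bst2 (1.08). Lower were the membrane proteins Ifitm1 and Ifitm3 (-1.29), which are also HSC signature genes, the interferon-inducible GTPase Igtp (-2.01) and Stat2 (-1.37), and Ifi44 was present in 16 of 36 BM HSC and listed at 0 in all CD11b+CD48+SK cells. Isg15 was present in 8 of 47 against 6 of 36 and differed by 0.12. The genes of the Ifitm family have similar copies between which reads could be divided.

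Receptors for cytokines differed in both directions. Of 32, 8 (25%) were higher and 6 (18.8%) lower by 1, beside 14.3% and 12.6% of all genes. The median was 0.18 and became -0.34 with the log2 of the mean TPM. Besides Flt3, the receptor chains Ifnar2 for type I interferon (2.61), Csf3r and Il3ra for interleukin 3 (2.20) were higher, and Il1r1 was present in 16 of 47 against 0 of 36. The interleukin 11 receptor chain Il11ra1 (-4.22) was lower, and so was Kit, the stem cell factor receptor on which the cells were sorted, at 0 to 102 TPM with a median of 12.1 in the CD11b+CD48+SK cells against 0.397 to 382 TPM with a median of 136 in the BM HSC (-2.54). Kit was present in 33 of 47 against 31 of 36.

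Adhesion genes differed in both directions. The leukocyte integrin genes Itgal (31 of 47 cells, below 1 TPM in all BM HSC), Itgb2 (2.48) and Itgb7 (3.21) were higher with Itgam, and Itgb2 and Itgal encode the chains of LFA-1. Icam2 (2.09), an adhesion molecule of endothelium and leukocytes, was also higher. Cd34 was at 12 to 1587 TPM with a median of 608 against 0.556 to 645 TPM with a median of 14.6 (4.32), and every CD11b+CD48+SK cell held it. Its mean log2(TPM+1) was 8.52 in the WT-MPP and 7.80 in the FL HSC, beside 9.01 in the CD11b+CD48+SK cells and 4.69 in the BM HSC. Lower were Emcn (endomucin, -2.41), Jam2 (-1.57), Icam1 (-1.58), S1pr1 (-1.25) and the integrin gene Itga5 (-1.22) beside Esam. Over the 28 genes, 8 (28.6%) were higher and 8 (28.6%) lower by 1, beside 14.3% and 12.6% of all genes. The median was 0.01. It became -0.42 when the cells were rescaled, -0.54 with the log2 of the mean TPM and 0.67 with the filter at 50% of cells. Cxcr4, the niche homing receptor, differed by 0.67. Among 7 Rgs genes, which damp receptor signalling, Rgs19 (2.14) and Rgs2 (2.07) were higher and Rgs1 (-2.74) and Rgs18 (-1.28) lower, and Rgs10 was present in 17 of 47 CD11b+CD48+SK cells and listed at 0 in all BM HSC. The Rgs list had 3 (42.9%) higher and 2 (28.6%) lower by 1. Its median was 0.34 and became -0.30 among the cells with 4000 to 5000 genes present.

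Of the 9 Hox genes tested, only Hoxb5 and Hoxa7 had higher means in the CD11b+CD48+SK cells. Hoxb5 was at 0 to 191 TPM with a median of 65.7 in the CD11b+CD48+SK cells and 0 to 203 TPM with a median of 0 in the BM HSC (4.08), and no CD11b+CD48+SK cell exceeded the highest BM HSC. Its cluster neighbours Hoxb4 (present in 3 of 47 against 6 of 36) and Hoxb2 (listed at 0 in all CD11b+CD48+SK cells, present in 12 of 36 BM HSC) did not accompany it. Hoxa10 (-2.61) and Hoxa5 (-1.42) were lower, and Hoxa9 differed by -0.79. Of the 9, 2 (22.2%) were higher and 3 (33.3%) lower by 1, beside 14.3% and 12.6% of all genes. The median was -0.61 and became 0.33 with the filter at 50% of cells and -1.90 with the log2 of the mean TPM.

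Imprinted growth genes, expressed from 1 parental allele and linked to HSC quiescence, were lower. Of 12 tested, 7 (58.3%) were lower by 1 or more and none higher, with a median of -1.13 (-3.35 to -0.38 over the alternatives). Grb10, an adaptor that restrains growth factor signalling, Phlda2 and Meg3 were listed at 0 in all 47 CD11b+CD48+SK cells and present in 23, 10 and 8 of 36 BM HSC, as was Ndn. Gnas, which encodes a G protein subunit, was present in every cell and differed by 0.44. The RNA-binding protein Igf2bp2 and Hmga2 of the fetal programme were present in few cells of either population (0 of 47 against 5 of 36 and 5 of 47 against 9 of 36), and 1 of its 5 tested members, Mycn, was lower by 1, with a median of -0.59 (-2.39 to -0.14 over the alternatives).

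Among 30 Polycomb genes, 3 (10%) were higher and 4 (13.3%) lower by 1, close to the background of 14.3% and 12.6%, with a median of -0.02 that became 0.05 with the filter at 50% of cells and -0.50 with the log2 of the mean TPM. Ezh2 (1.35), the methyltransferase of dividing cells, and Mtf2 (1.76) were higher, and Ezh1 (-1.20), its homologue in resting cells, was lower. Of 17 DNA methylation genes, 6 (35.3%) were higher, among them the maintenance enzyme Dnmt1 (1.77) and its partner Uhrf1 (1.37), which are also in the DNA synthesis list, and none was lower, with a median of 0.58 (0.23 to 1.03 over the alternatives). In the Bcl2 family of 13, 1 (7.69%) was higher and 2 (15.4%) lower by 1, beside 14.3% and 12.6% of all genes. The median was 0.48 and became -0.23 with the log2 of the mean TPM and 0.02 with no filter. The cell death effector Bax was higher (1.86) and Bnip3 (-1.49) and Bnip3l (-1.34), which mark mitochondria for removal, were lower.

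Genes of the respiratory chain, the ribosome and the proteasome had higher means in small steps shared by many genes. Of 76 nuclear genes of the respiratory chain, 31 (40.8%) were higher by 1 or more and none lower, with a median of 0.84 (0.25 to 0.89 over the alternatives), with Ndufa1 of complex I (2.93) and Cox5a of complex IV (2.47). Of 79 cytosolic ribosomal proteins, 21 (26.6%) were higher by 1 and none lower, with a median of 0.81 (0.23 to 0.81 over the alternatives). Rplp2 was at 1076 to 2987 TPM with a median of 1684 against 42.9 to 2094 TPM with a median of 688 (1.301). Of 32 proteasome subunits, 10 (31.2%) were higher by 1, with a median of 0.53. Of 49 ribosome biogenesis genes, 9 (18.4%, beside 14.3% of all genes) were higher and 3 lower by 1, with a median of 0.34 that became -0.11 with the log2 of the mean TPM. These lists depended on the scaling. With the cells rescaled by the median ratio, the medians became 0.25 for the respiratory chain, 0.23 for ribosomal proteins, 0.0023 for ribosome biogenesis and -0.04 for the proteasome, against -0.18 for all genes. Many ribosomal protein genes also have near-identical pseudogenes that could take part of the reads.

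Within sugar metabolism, single genes differed in both directions. Taldo1 (transaldolase), an enzyme of the pentose phosphate branch, was at 311 to 1406 TPM with a median of 732 in the CD11b+CD48+SK cells and 0 to 849 TPM with a median of 204 in the BM HSC (2.96), and Pgls (2.23) and Pgd (1.44) of the same branch were higher with the myeloid hexokinase Hk3 (3.50) and the glycolytic mutase Pgam1 (2.23). The lactate dehydrogenase chain Ldhb was at 0 to 493 TPM with a median of 0.847 against 3.87 to 1486 TPM with a median of 265 (-4.68), and the glucose transporter Slc2a3 was lower (-2.20). Over the 31 genes, 7 (22.6%) were higher and 6 (19.4%) lower by 1, beside 14.3% and 12.6% of all genes. The median was -0.01 (-0.33 when the cells were rescaled, 0.07 with the filter at 50% of cells) and the mean 0.09. Synthesis of cholesterol and fatty acids was lower, with 14 of 33 genes (42.4%) lower by 1 or more, 1 higher and a median of -0.67 (-1.27 to -0.39 over the alternatives). Sc4mol, a sterol oxidase, was at 0 to 309 TPM with a median of 0 against 0 to 1669 TPM with a median of 98.9 (-3.74), and the desaturases Fads2 (-3.07) and Fads1 (-1.81) and the sterol-sensing factor Srebf2 (-1.65) were lower.

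**Figure D5:**
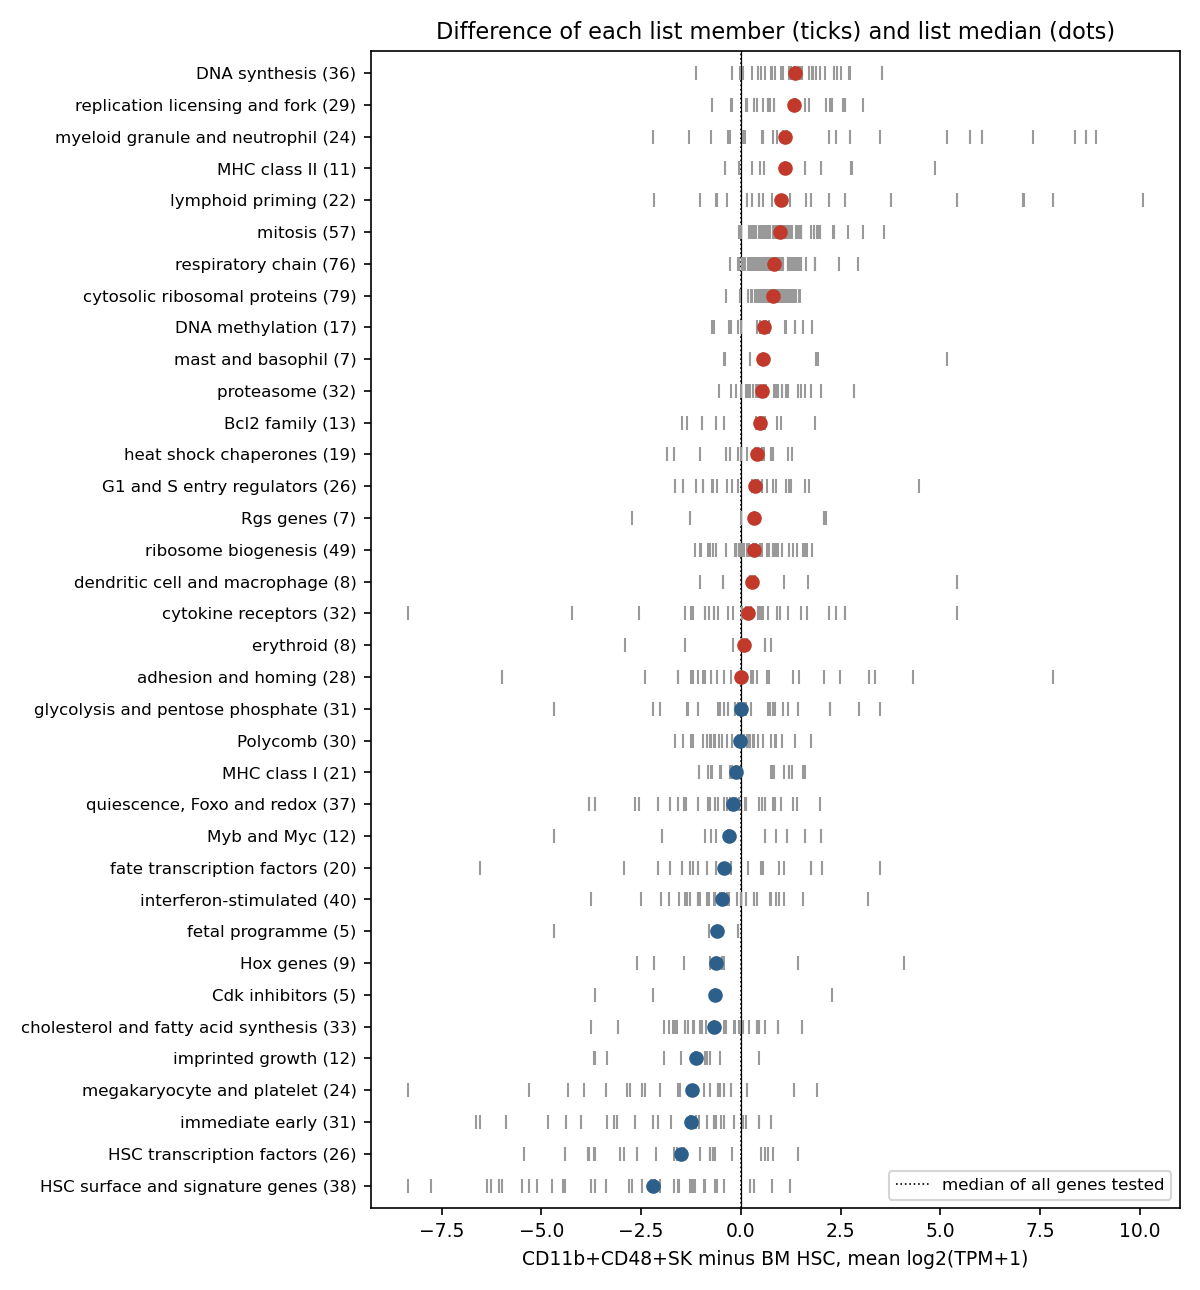
Difference in mean log2(TPM+1), CD11b+CD48+SK minus BM HSC, of each tested member (ticks) of 36 gene lists and the median of each list (dots, red above 0 and blue below), with the number of members tested in parentheses. DNA synthesis (median 1.36) and HSC surface and signature genes (-2.19) stand at the ends, and the dotted line marks the median of all 10181 genes, 0.01.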

How the data were processed

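The members and gene lists were chosen with earlier results of these data known. The 180 single cells were amplified with the Discover-sc WTA Kit V2 and made into libraries with the TruePrep DNA Library Prep Kit V2. The authors deposited 1 table of TPM values per gene and cell, in which every cell sums to 1000000 TPM. The submitters' processing notes name HISAT2 2.1.0, SAMtools 0.1.19, StringTie 1.3.4, bcl2fastq and the mm10 build, and the annotation and any filter on genes or cells are not given in the sources used here. Of 181 columns of cells, 1 matched no sample here and was not used.

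Depth per cell is unknown and cannot be read from TPM, so no count test was made. Cells are not replicates, and no animal is named. Each population is therefore 1 sample, and populations were compared by the difference of mean log2(TPM+1) over cells and by the share of cells at 1 TPM or more, with exact Clopper-Pearson 95% intervals that cover the counting of cells only. Genes entered when present in at least 10% of the cells of either population. Differences of 1 on the log2 scale and of 50 percentage points were counted. The named genes were the 15 highest and 15 lowest among genes present in at least 50% of a population, the study's genes, the sort markers, up to 6 members per list and direction that differed by 1 or more, and other members where their list is described. Some genes that met this rule are not reported here. Of 1207 names listed, 1129 were found, and 908 distinct genes passed the filter. No 2 cells had identical columns, and doublets were not sought. Known changes put into the BM HSC values were returned by the calculation, which checks its arithmetic only. Alternatives were other pseudocounts (0.1 and 10), the log2 of the mean TPM, a median-ratio scaling, other filters, cells with 4000 to 5000 genes present, and other limits for presence. Promoters came from RefSeq (GRCm38.p6). Python 3.11.15, numpy 2.4.6, pandas 2.3.3, scipy 1.17.1 and matplotlib 3.10.9 were used.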

Additional observations from a re-analysis of the deposited data

How the results depend on the processing

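No paired analysis was possible because the numbers in the labels are cell numbers and no test was made. The counts of genes depended on the scale. With a pseudocount of 0.1, 2326 genes were higher and 2317 lower by 1, with a pseudocount of 10 the counts were 537 and 438, as the construction of the scale implies. The number lower was 2791 with the log2 of the mean TPM, which kept 12 of the 30 highest and lowest genes, and 706 among genes present in 50% of cells. Genes with a share lower by 50 points numbered 47 at 10 TPM and 179 at any TPM above 0. Apart from the pseudocounts, and the filter, which tested fewer genes, the cause was not tested. The median of all genes ranged from -0.36 to 0.31 over 7 alternatives, and 16 to 24 of 38 lists had a median above 0. Of 266 recomputed list medians, 22 changed sign, in 14 lists. The lists of HSC genes, myeloid and lymphoid genes, replication, DNA synthesis, mitosis, MHC class II, immediate early, imprinted and megakaryocyte genes kept their sign in all 7, though not their size. Without the filter the median was 0.53 for myeloid, 0.39 for lymphoid and -0.38 for imprinted genes, and with the filter at 50% of cells 2.73, 1.69 and -3.35. Fewer or more genes entered these medians. Of 1670 differences of 246 named genes, 1398 moved by less than 1 SD over cells and, of the genes that differed by 1 or more, 3 changed sign, Muc13 to -0.0376 with the log2 of the mean TPM, and Tfdp1 to -0.29 and Il10rb to -0.12 among cells with 4000 to 5000 genes present (24 of 47 CD11b+CD48+SK, 17 of 36 BM HSC). Cdk1, which differed by 0.59, became -0.33 in the same cells. The cause was not tested. Depth is unknown, so a gene listed at 0 may have been missed.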

Other observations

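Of the 30 highest and lowest genes, several lay outside the lists described above. Lgals1 (galectin-1, a secreted lectin that binds glycans on leukocytes) was at 6.45 to 4710.4 TPM with a median of 728 in the CD11b+CD48+SK cells and 0 to 333 TPM with a median of 0.959 in the BM HSC, with 39 of 47 cells above the highest BM HSC. Tyrobp, which signals below receptors of NK and myeloid cells, was at 0 to 1973 TPM with a median of 384 against 0 to 5.64 TPM with a median of 0. Gpr97, an adhesion receptor of granulocytes, was at 0 to 610.2 TPM with a median of 191 against 0 to 122 TPM with a median of 0. In the WT-MPP, mean log2(TPM+1) was 4.16 for Lgals1, 2.16 for Tyrobp and 0.89 for Gpr97, beside 9.23, 7.34 and 6.96 in the CD11b+CD48+SK cells. The FL HSC had 8.42, 5.03 and 0.10, so a high level of Lgals1 was not particular to the CD11b+CD48+SK cells.

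In the opposite direction, Serpinf1, a secreted serpin, was at 1.11 to 1401 TPM with a median of 320.1 in the BM HSC and 0 to 123 TPM with a median of 0 in the CD11b+CD48+SK cells. Krt18, an intermediate filament protein of epithelia, was at 0 to 1553 TPM with a median of 222 against 0 to 189.5 TPM with a median of 0, and 22 of 36 BM HSC lay above the highest CD11b+CD48+SK cell. Tbxas1, which makes thromboxane, was at 2.56 to 1975 TPM with a median of 398 against 0 to 293 TPM with a median of 0.382. Mean log2(TPM+1) in the WT-MPP was 6.24 for Serpinf1, 5.11 for Krt18 and 5.49 for Tbxas1, beside 6.89, 6.58 and 8.10 in the BM HSC.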
